A study of Mus musculus with 8 samples.

Results

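Amino acid transporters were examined in the RNAseq of S0 cells, the least mature of the erythroid subsets sorted from mouse fetal liver. The 10 genes described here were given by name and cover the carriers of cystine (Slc7a11 with its heavy chain Slc3a2), of cationic amino acids (Slc7a1 and Slc7a3), of large neutral amino acids (Slc7a5, also with Slc3a2), of small neutral amino acids (Slc38a1, Slc38a2, Slc1a4 and Slc1a5) and of glycine (Slc6a9). They are 10 of the 52636 genes in the count table, and all 10 were among the 17378 genes that passed the filter on low counts. S0 cells were sorted at E12.5 as live, lineage-negative cells without CD71 and Ter119, and 4 WT and 4 DKO libraries were sequenced. DKO embryos carry constitutive deletions of Vps13a and Vps13c in all tissues, the former made with β-actin-Cre, and came from intercrosses of Vps13a+/-/Vps13c-/- mice kept on a C57BL/6J background. No WT embryo can be born to such a cross, so the WT libraries are not littermates of the DKO libraries. WT embryos carried neither deletion.

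Amino acids cross the plasma membrane through carriers of the solute carrier (SLC) families. Members of the SLC7 family either work alone, as the cationic carriers do, or need the glycoprotein SLC3A2 (CD98) to reach the cell surface, as the light chains SLC7A5 and SLC7A11 do. Several of these genes are known targets of ATF4, the transcription factor of the integrated stress response, which cells use to adjust amino acid supply. Erythroid precursors need glycine for heme and cystine for glutathione.

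Libraries held 42114489 to 50886469 counts in WT and 36981439 to 42587815 in DKO. Values of single libraries are given in the order of replicates 1 to 4. They are normalized counts, that is, raw counts over the TMM-scaled library size, times its mean. Genotypes were tested in edgeR by quasi-likelihood, and p-values were adjusted over all 17378 genes by the Benjamini-Hochberg method. A gene passed at an adjusted p under 0.05. Vps13a had 1825 to 2109 normalized counts in WT and 607 to 1039 in DKO, whereas Vps13c, counted over the whole gene, had a log2 fold change of 0.49 (adjusted p = 0.182) and did not check the labels. The erythroid list was present in both genotypes (summed level of 15 genes, 81039 to 122250 normalized counts in WT and 61086 to 146090 in DKO, 2 genes higher and 0 lower, with 0 lower also at an unadjusted p under 0.05 and in DESeq2). Hepatoblast transcripts were abundant as well, with summed levels of 529663 to 731017 in WT and 176385 to 639028 in DKO over 12 genes, although none of these passed in edgeR (5 were lower at an unadjusted p under 0.05 and in DESeq2). Mesenchymal markers moved with genotype. Of 8 genes, 7 were higher in DKO, and their summed level lay between 2135 and 5903 over WT, whereas the 4 DKO libraries had 45395, 12968, 14902 and 21726. The neutrophil and mast cell list moved the other way (4 of 8 genes lower, summed level 104671 to 137290 in WT and 5688 to 47252 in DKO). Of the endothelial, macrophage and megakaryocyte lists, 1 of 8, 1 of 8 and 1 of 7 genes were lower. The endothelial sum was nevertheless 3397 to 4519 in WT and 2049 to 2810 in DKO. The macrophage sum was 4864 to 7355 and 1369 to 4383, also without overlap. The megakaryocyte sums overlapped (55304 to 63869 and 40852 to 118382). No marker was at 0 in all libraries. In bulk libraries, fewer cells of a type and less RNA per cell cannot be told apart. Xist was at most 30.1 normalized counts in WT and 62.3 in DKO replicate 3, but 18029 to 27043 in the other DKO libraries, while Ddx3y was 2911 to 3354 in WT, 2516 in DKO replicate 3 and at most 41.0 in the other DKO libraries. Sex was thus unequal between the groups. DKO replicate 3 was therefore also set alone against the 4 WT libraries. That fit takes its spread from WT and assumes that the lone library varies alike. This library also had the lowest hepatoblast sum (176385, against 424582 to 639028 in the other DKO libraries). Its macrophage sum (1369) was the lowest as well. The part of cell mixture in that fit was not tested.

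Of the 10 transporters, 6 were higher in DKO and none was lower. The background was 10.7% of all tested genes higher and 10.8% lower (21.6% in either direction). The 10 were chosen with earlier results of these data known, so the contrast with the background is only descriptive. The 6 were Slc7a3, Slc7a11, Slc6a9, Slc1a4, Slc3a2 and Slc1a5, and 4 of them had a log2 fold change above 1 (background 6.19%, and 2.43% below -1). For 5 of the 10 the lowest DKO library exceeded the highest WT library, as it did for 13.5% of all tested genes, and for 0 the groups were apart in the other direction (14.6%). The median log2 fold change was 0.62 for the 10 transporters and 0.03 for all genes tested. At an unadjusted p under 0.05, 7 were higher and 1 was lower, and the share of all genes at that threshold is not given here. DESeq2 called 7 higher and 0 lower, beside 2751 higher and 2642 lower of all genes. With DKO replicate 3 alone, the log2 fold changes of the 6 ran from 0.42 (Slc1a5) to 3.83 (Slc7a3), and that of Slc38a1 was -0.42. The part of mesenchymal, of neutrophil and mast cell, of endothelial and of macrophage RNA in these differences was not tested. The plot of normalized counts by library shows that the carriers fall into a pair that was nearly silent in WT and a larger set with smaller differences.

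**Figure D1:**
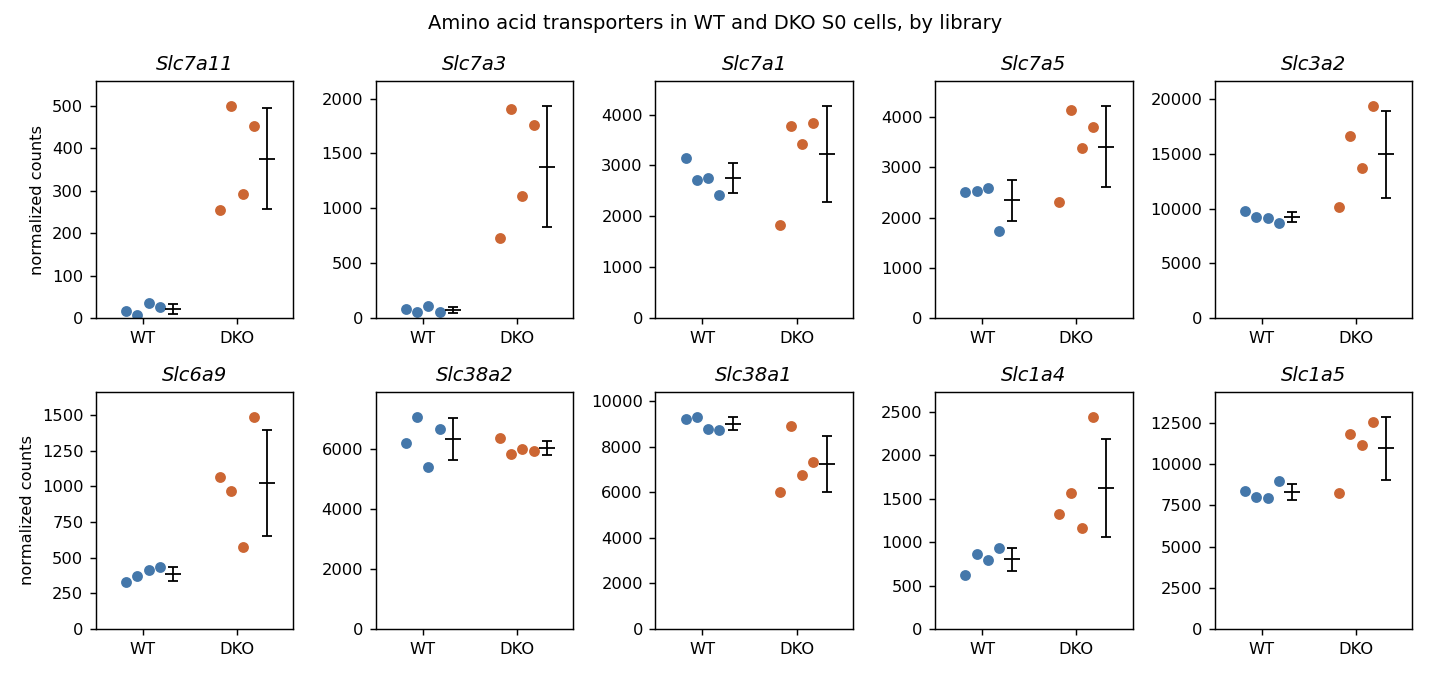
Normalized counts (y axis, linear, starting at 0) of the 10 transporters in 4 WT libraries (blue) and 4 DKO libraries (orange), with the mean ± SD beside the points. Slc7a11 and Slc7a3 stay at or below 35.6 and 116 in WT and reach at least 255 and 731 in DKO, whereas Slc38a2 lies in the same range in both genotypes.

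The transcript of the cystine carrier was scarce in WT and higher in DKO. Slc7a11 (ENSMUSG00000027737.10, GRCm38, chromosome 3 from 49892526 to 50443614, minus strand) encodes xCT, the light chain that exchanges cystine for glutamate. It had 16.8, 8.61, 35.6 and 27.1 normalized counts in WT replicates 1 to 4 and 255, 499, 293 and 453 in DKO replicates 1 to 4. The groups did not overlap, and the lowest DKO library was several times the highest WT library. The means were 22.0 ± 11.8 and 375 ± 119 (SD, n = 4 each), and edgeR gave a log2 fold change of 4.08 with an SE of 0.47 and an adjusted p of 0.00143. The exact permutation test, two-sided, gave p = 0.0286, the smallest that 4 against 4 allow. The WT level rests on 10 to 41 counts per library, so the size of the fold change is less certain than its direction. With 1 library left out, the log2 fold change stayed between 3.82 and 4.41, and in DKO replicate 3 alone against the 4 WT libraries it was 3.72 (edgeR adjusted p = 0.00334).

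The sequence before the start of Slc7a11 is shown because it holds the letters of the C/EBP-ATF response element, the site that ATF4 is known to bind, in a pair. RefSeq windows of 300 bases (250 before and 50 after a start, GRCm38.p6) were given for 6 of the 10 genes, in 9 windows, and were searched on both strands for TGATGNAA, whose reverse complement is TTNCATCA. Capitals mark the matches, and the printed strand is the minus strand of chr3:50443614-50443863, written 5′ to 3′ up to the base before the start.
Slc7a11: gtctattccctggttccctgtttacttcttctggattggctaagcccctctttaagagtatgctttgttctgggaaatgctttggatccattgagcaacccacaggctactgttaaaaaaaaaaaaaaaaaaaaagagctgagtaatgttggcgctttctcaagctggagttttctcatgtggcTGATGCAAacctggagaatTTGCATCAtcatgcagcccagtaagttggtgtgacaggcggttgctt

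The matches began at positions -66 and -47 from the start, on opposite strands. Of all 32851 windows in the table, 1304, or 3.97%, held the motif at least once and 23, or 0.07%, held it more than once. The form with C in the open place, TGATGCAA or TTGCATCA, was present in 294 windows (0.895%) and in more than 1 copy in only 2 windows (0.00609%), of which the Slc7a11 window was 1. Both Slc7a11 matches have this form and the window was printed for its pair, so these shares are only descriptive. Slc1a4 also held this form, once, at position -4 and running over the start, on the minus strand of chr11:20332699-20332728.
Slc1a4: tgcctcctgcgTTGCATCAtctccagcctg

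The 7 windows of Slc3a2, Slc6a9, Slc7a1 and Slc38a2 held no match. No window was given for Slc7a3, Slc7a5, Slc38a1 or Slc1a5. These are descriptions of letters in a short window, and no binding was measured.

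Of Slc7a3 and Slc7a1, which encode cationic carriers, the first was low in WT and rose, and the second, the more abundant in WT, did not pass. Slc7a3 (ENSMUSG00000031297.14, minus strand of chromosome X from 101079210 to 101086020) encodes CAT-3, a carrier of arginine, lysine and ornithine. It had 80.6, 59.4, 116 and 56.8 normalized counts in the 4 WT libraries and 731, 1902, 1115 and 1762 in the 4 DKO libraries. The genotypes were far apart, with no overlap. The means were 78.1 ± 27.1 and 1377 ± 550 (SD, n = 4 each). In edgeR the log2 fold change was 4.14 with an SE of 0.37 and an adjusted p of 0.000425, rank 35 by p of all genes tested, and the exact permutation p was 0.0286. The log2 fold change was 3.94 to 4.39 with 1 library left out. Slc7a3 is X-linked, and the part of the unequal sexes in its difference was not tested. In DKO replicate 3 alone the log2 fold change was 3.83 (edgeR adjusted p = 0.000216). Of 572 X-linked genes tested, 48 were higher in DKO (8.39%), with a median log2 fold change of 0.01.

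Slc7a1 (ENSMUSG00000041313.14, minus strand of chromosome 5 from 148327410 to 148399904), the widely expressed cationic carrier CAT-1, had 3144, 2705, 2747 and 2422 normalized counts in the 4 WT libraries and 1840, 3780, 3427 and 3835 in the 4 DKO libraries. DKO replicate 1 was below all WT libraries and the other DKO libraries were above all of them. The log2 fold change was 0.23 (95% interval -0.24 to 0.69, edgeR adjusted p = 0.476; exact permutation p = 0.543). Without DKO replicate 1 it was 0.42 and passed (edgeR adjusted p = 0.0199).

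The balance between Slc7a1 and Slc7a3 was read per library. Levels were compared between genes as normalized counts per kb of merged exons. By this measure Slc7a3 made up 6.27 to 11.4% of the summed level of both genes in WT and 49.8 to 60.5% in DKO, with means of 7.89 ± 2.35% and 55.9 ± 4.69% (SD, n = 4 each). The groups did not overlap, and DKO replicate 1, in which both genes were at their lowest of the DKO libraries, lay in the middle of them at 54.8%. With the longest annotated transcript as the length, the ranges were 5.42 to 9.89% and 45.9 to 56.8%, and with counts not divided by length they were 2.15 to 4.04% and 24.5 to 33.5%. The difference between the means thus fell from 48.0 to 26.7 percentage points without a length. Slc7a2, which encodes the cationic carrier CAT-2, had 48.7 ± 11.1 normalized counts per kb in WT and 60.4 ± 15.3 in DKO, above Slc7a3 in WT, and did not pass (log2 fold change 0.31, edgeR adjusted p = 0.385). It is named after its values were seen. With Slc7a2 in the sum, the share of Slc7a3 was 6.64 ± 2.08% over WT and 50.5 ± 5.99% over DKO libraries (SD, n = 4 each), with no overlap. No test was made of this share, which follows from the values of its genes.

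The heavy chain and its light chains moved unequally. Slc3a2 (ENSMUSG00000010095.13, minus strand of chromosome 19 from 8706882 to 8723369) had the highest mean per kb of all 10 genes in either genotype. Its libraries held 9754, 9272, 9196 and 8683 normalized counts in the 4 WT libraries and 10142, 16615, 13712 and 19341 in the 4 DKO libraries. The groups did not overlap, although DKO replicate 1 lay only just above WT replicate 1. The means were 9226 ± 438 and 14952 ± 3946 (SD, n = 4 each). By edgeR this was a log2 fold change of 0.70 with an SE of 0.17 and an adjusted p of 0.0197, and the exact permutation p was 0.0286. The edgeR value rose above 0.05 without WT replicate 1 (0.0561), WT replicate 2 (0.0561) or WT replicate 4 (0.0664), and to 0.0582 with replicate number as a block.

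Slc7a5 (ENSMUSG00000040010.10, minus strand of chromosome 8 from 121881150 to 121907694) encodes LAT1, the carrier of leucine and other large neutral amino acids. Its values were 2516, 2531, 2596 and 1734 normalized counts in the 4 WT libraries and 2315, 4152, 3379 and 3813 in the 4 DKO libraries. DKO replicate 1 fell inside the WT range and the other DKO libraries were above it. The log2 fold change was 0.54 (95% interval 0.12 to 0.97, edgeR adjusted p = 0.0698; exact permutation p = 0.114), so it did not pass. It passed without DKO replicate 1 (log2 fold change 0.69, edgeR adjusted p = 0.0127), in DESeq2 (adjusted p = 0.0412), with upper-quartile scaling (0.0398) and with at least 10 counts required in every library (0.0471).

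The light chains known to pair with SLC3A2 are encoded by Slc7a5, Slc7a6, Slc7a7, Slc7a8, Slc7a10 and Slc7a11. Per kb, their summed level was 1404 to 1599 in WT and 1159 to 1870 in DKO, and the ranges overlapped. The level of Slc3a2 divided by this sum was 1.69 to 1.81 in WT and 2.48 to 3.16 in DKO, with means of 1.75 ± 0.05 and 2.68 ± 0.32 (SD, n = 4 each) and no overlap. Shares of the light chains differed without overlap for 4 of them. Slc7a5 made up 33.3 to 48.7% in WT and 53.9 to 59.9% in DKO. Slc7a6, the y+LAT2 chain, made up 42.0 to 49.3% and 26.0 to 34.2%, and Slc7a8, the LAT2 chain, 4.48 to 11.4% and 1.66 to 2.60%. Slc7a7, the y+LAT1 chain, overlapped, with 4.11 to 5.94% in WT and 2.92 to 10.8% in DKO. Slc7a11 was 0.04 to 0.18% of the light chains in WT and 1.38 to 1.92% in DKO. These shares depend on the length taken for each gene. For Slc7a11 the difference between the means, 1.58 percentage points, was 2.08 with the longest transcript and 5.32 with counts not divided by length.

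**Figure D2:**
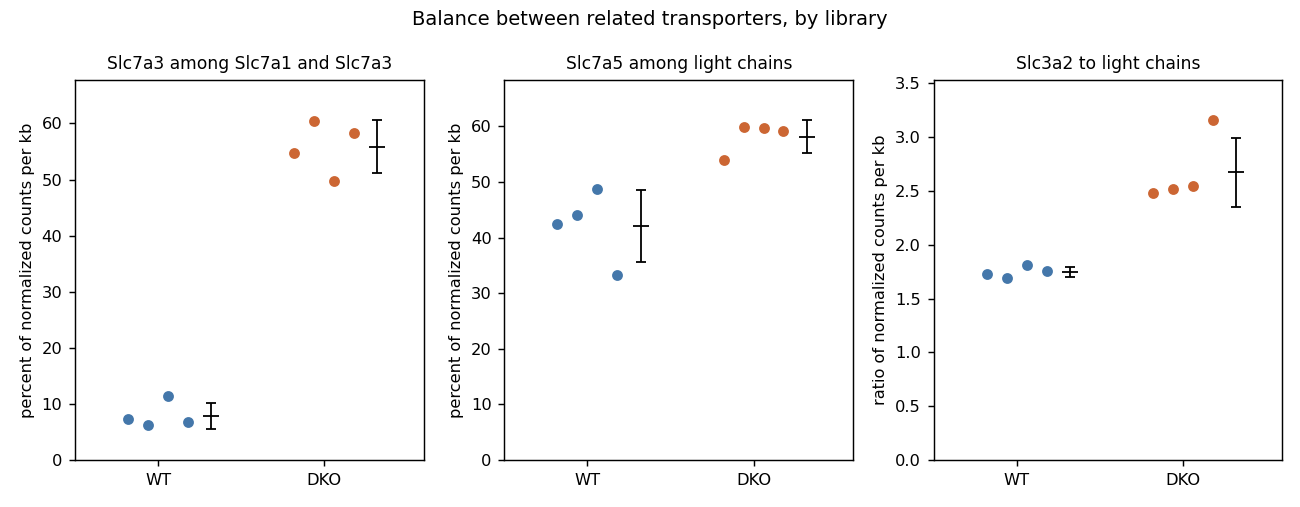
Balance between related carriers in 4 WT (blue) and 4 DKO (orange) libraries, from normalized counts per kb of merged exons, with the mean ± SD beside the points; the y axes start at 0. Slc7a3 goes from at most 11.4% to at least 49.8% of Slc7a1 and Slc7a3 together, Slc7a5 from at most 48.7% to at least 53.9% of the light chains, and the ratio of Slc3a2 to its light chains from at most 1.81 to at least 2.48.

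The transcript of the glycine carrier was higher in DKO. Slc6a9 (ENSMUSG00000028542.17, plus strand of chromosome 4 from 117834506 to 117875198) encodes GLYT1, the carrier that erythroid cells use to take up glycine for heme. It had 327, 371, 416 and 431 normalized counts in the 4 WT libraries and 1064, 969, 575 and 1484 in the 4 DKO libraries. All DKO libraries were above all WT libraries, with DKO replicate 3 nearest to them. The means were 386 ± 47.2 and 1023 ± 373 (SD, n = 4 each), and DKO was 2.65-fold higher. In edgeR, the log2 value was 1.41 with an SE of 0.26 and an adjusted p of 0.00748, and the exact permutation p was 0.0286. DKO replicate 3 alone gave a log2 fold change of 0.57, which did not pass (edgeR adjusted p = 0.112). Exons of Slc6a9 overlap those of Ccdc24 over 1429 bases and of B4galt2 over 46 bases on the opposite strand, and whether strand was used in counting is not given in the sources used here. Ccdc24 ranged from 59.9 to 85.7 normalized counts over WT and had 286, 27.9, 68.4 and 327 in DKO, and B4galt2 had 86.6 to 108 in WT and 129 to 576 in DKO. In DKO replicate 2, Ccdc24 was below every WT library, while B4galt2 (196) and Slc6a9 were above every one. The part of these overlaps in the Slc6a9 difference was not tested.

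Of the related carriers of small neutral amino acids, the SLC1 pair was higher and the SLC38 pair was not. Slc1a4 (ENSMUSG00000020142.12, minus strand of chromosome 11 from 20302180 to 20332713) encodes ASCT1, an exchanger of serine, alanine, cysteine and threonine. It had 618, 860, 798 and 934 normalized counts in the 4 WT libraries and 1327, 1567, 1166 and 2442 in the 4 DKO libraries. The groups did not overlap. EdgeR gave a log2 fold change of 1.02 with an SE of 0.23 and an adjusted p of 0.0156, and the exact permutation p was 0.0286. It just failed to pass without WT replicate 1 (log2 fold change 0.91, edgeR adjusted p = 0.0545), and in DKO replicate 3 alone it was 0.53 (edgeR adjusted p = 0.115).

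Slc1a5 (ENSMUSG00000001918.17, plus strand of chromosome 7 from 16781340 to 16798274) encodes ASCT2, the main glutamine exchanger of many dividing cells. It had 8351, 8009, 7935 and 8992 normalized counts in the 4 WT libraries and 8231, 11854, 11175 and 12564 in the 4 DKO libraries. DKO replicate 1 lay within the WT range and the other DKO libraries above it. With a log2 fold change of 0.40 (SE 0.12), its edgeR adjusted p of 0.0490 was just under the threshold, and the exact permutation p was 0.0857. Leaving out any library other than DKO replicate 1 took the adjusted p above 0.05, to between 0.0745 and 0.115, whereas without DKO replicate 1 it was 0.00226. With replicate number as a block it was 0.0836 and without the low-count filter 0.0821.

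Slc38a2 (ENSMUSG00000022462.6, minus strand of chromosome 15 from 96687392 to 96699730) encodes SNAT2, the sodium-coupled carrier that is induced when amino acids are scarce. It had 6217, 7071, 5408 and 6677 normalized counts in the 4 WT libraries and 6360, 5828, 5997 and 5932 in the 4 DKO libraries. All DKO libraries were inside the WT range. In edgeR, the log2 fold change was -0.07 (95% interval -0.28 to 0.13, edgeR adjusted p = 0.611; exact permutation p = 0.457), an interval that leaves room for a rise of at most 0.13 on the log2 scale. Its sign turned with upper-quartile scaling (0.04), which moved the median of all genes to 0.14 from 0.03.

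Slc38a1 (ENSMUSG00000023169.14, minus strand of chromosome 15 from 96571418 to 96642913), the related glutamine carrier SNAT1, had 9230, 9297, 8764 and 8758 normalized counts in the 4 WT libraries and 6014, 8927, 6748 and 7319 in the 4 DKO libraries. DKO replicate 2 was within the WT range and the other DKO libraries were below it. With a log2 fold change of -0.31 (95% interval -0.57 to -0.06, edgeR adjusted p = 0.0793; exact permutation p = 0.0857), it did not pass. It did pass without DKO replicate 2 (log2 fold change -0.43, edgeR adjusted p = 0.0156), with library sizes not scaled by TMM (0.0479) and in DKO replicate 3 alone against the WT libraries (-0.42, adjusted p = 0.0176).

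**Figure D3:**
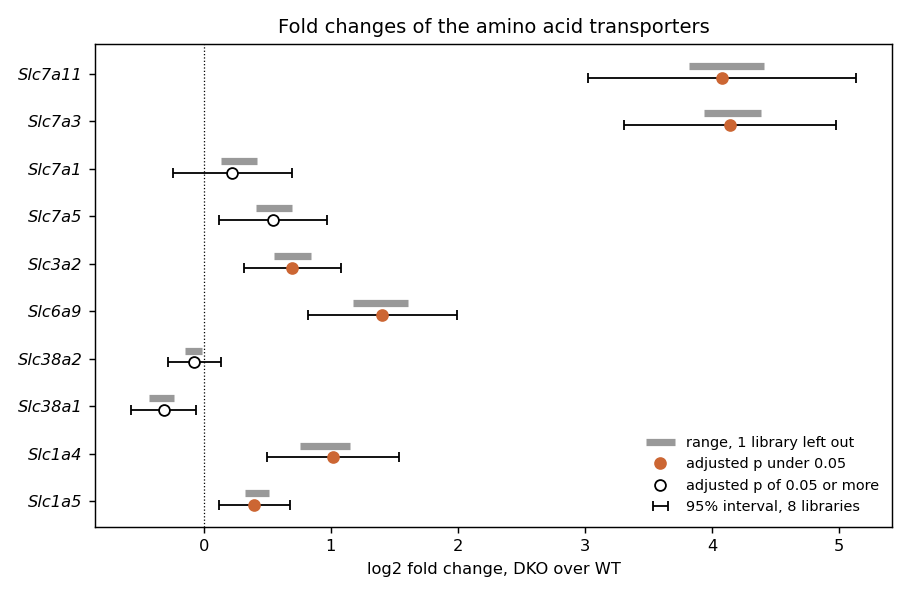
Log2 fold changes of the 10 transporters, DKO over WT, from edgeR with 4 libraries per genotype. Filled points passed at an adjusted p under 0.05, black bars are 95% intervals and grey bars give the range with 1 library left out. Slc7a11 and Slc7a3 lie above 4 and the other 8 genes between -0.31 and 1.41.

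Levels were then ordered per kb of merged exons. In WT, Slc3a2 (2614 ± 124 normalized counts per kb) and Slc1a5 (1994 ± 116) led, followed by Slc38a2 (718 ± 80.9), Slc7a5 (632 ± 110), Slc38a1 (523 ± 16.9), Slc7a1 (239 ± 25.8), Slc1a4 (204 ± 34.4), Slc6a9 (75.1 ± 9.17), Slc7a3 (20.6 ± 7.17) and Slc7a11 (1.58 ± 0.848) (SD, n = 4, merged exons). The ranges of Slc38a2 and Slc7a5, of Slc7a5 and Slc38a1 and of Slc7a1 and Slc1a4 overlapped. In DKO, Slc3a2 (4237 ± 1118) and Slc1a5 (2625 ± 456) still led, with ranges that overlapped, and Slc7a11 (26.9 ± 8.55) was still lowest. Slc7a5 (921 ± 215) had a higher mean than Slc38a2 (682 ± 26.2), but their ranges overlapped. Slc38a1 (421 ± 71.8), Slc1a4 (414 ± 145), Slc7a3 (364 ± 145), Slc7a1 (279 ± 81.3) and Slc6a9 (199 ± 72.6) each overlapped the next in order. The order depends on the length taken for each gene. Merged exons of Slc38a1 span 17.236 kb and its longest transcript 7.266 kb. Per kb of the longest transcript, Slc38a1 (1240 ± 40.1) stood above Slc38a2 (1037 ± 117) and Slc7a5 (667 ± 116) in WT, and the means of these 3 in DKO were 998 ± 170, 986 ± 37.8 and 971 ± 227. By that length the WT ranges of Slc3a2 and Slc1a5 overlapped, while Slc3a2 kept the highest and Slc7a11 the lowest mean in both genotypes.

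The DKO libraries differed among themselves in a recurrent way. DKO replicate 1 had the lowest level of the 4 for 7 of the 10 transporters, DKO replicate 4 the highest for 5 and DKO replicate 2 the highest for 4. Over the 10 genes, the summed level was 38011 to 40255 normalized counts in WT, 38280 in DKO replicate 1 and 47587 to 58943 in the other DKO libraries. DKO replicate 1 thus lay inside the WT range for the sum, above it for Slc7a11, Slc7a3, Slc6a9, Slc1a4 and Slc3a2, and below it for Slc7a1 and Slc38a1. With it left out of the fit, 8 of the 10 transporters passed as higher, beside 1915 higher and 2012 lower of all genes. DKO replicate 1 also had the highest mesenchymal sum (45395) and the lowest neutrophil and mast cell sum (5688) of the DKO libraries. The part of cell mixture in its transporter levels was not tested.

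**Figure D4:**
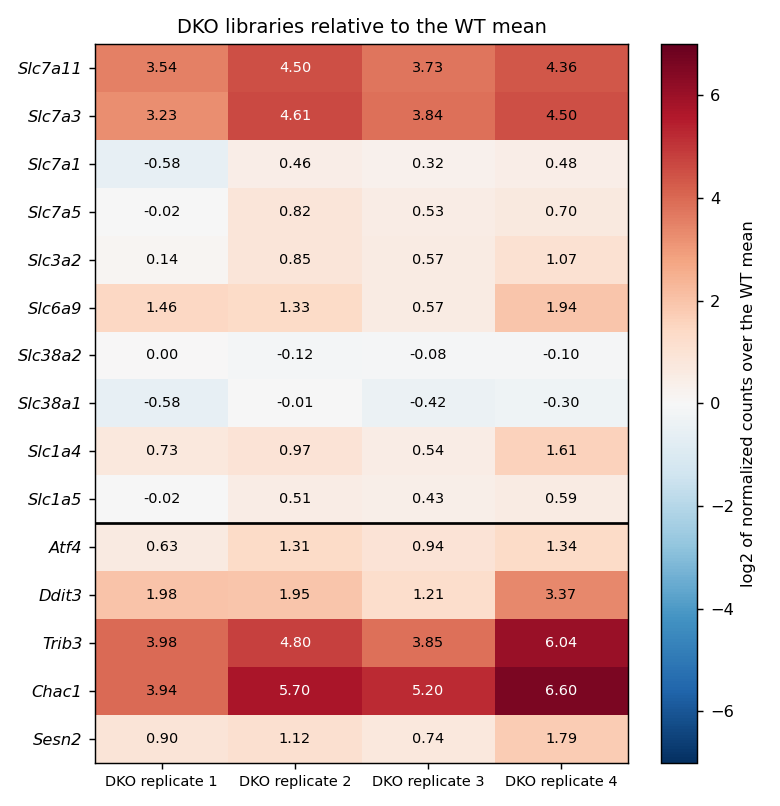
Log2 of the normalized counts in each DKO library over the mean of the 4 WT libraries, for the 10 transporters (above the line) and for 5 genes of the stress response (below it); red is higher and blue is lower in DKO. Slc7a11 and Slc7a3 are at 3.23 or above in every DKO library, and DKO replicate 1 has the lowest value of the 4 for Slc7a1, Slc7a5, Slc3a2 and Slc1a5.

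Genes that act on these carriers were split. Of 18 regulators and partners tested, 4 were higher and 4 lower in DKO, with a median log2 fold change of -0.10. Named by the smallest p, the higher ones were the stress factors Atf4, Ddit3 and Trib3. Atf4, which drives transcription of carriers under stress, had 5163, 5283, 4841 and 4126 normalized counts in the 4 WT libraries and 7532, 12064, 9306 and 12276 in the 4 DKO libraries (log2 fold change 1.08, edgeR adjusted p = 0.00346). Among the DKO libraries, Atf4 and Chac1 were lowest in replicate 1, whereas Ddit3, Trib3 and Sesn2 were lowest in replicate 3. A link between these orders and those of the transporters was not tested. Trib3, a target and feedback inhibitor of ATF4, rose from 133 to 169 in WT to between 2115 and 9658 in DKO (log2 fold change 4.95, edgeR adjusted p = 0.000962), and Ddit3, which encodes CHOP, from 620 to 733 to between 1548 and 6894 (2.35, adjusted p = 0.00547). The lower ones, named likewise, were Myc, a known inducer of Slc7a5 and Slc1a5 (log2 fold change -0.63, edgeR adjusted p = 0.00227), Cd44, a membrane partner that stabilises xCT (-0.67, adjusted p = 0.0421), and Eif2ak1, the heme-regulated eIF2α kinase (-0.46, adjusted p = 0.0121). Nfe2l2, which encodes NRF2, another activator of Slc7a11, had a log2 fold change of -0.32 (adjusted p = 0.0483) and is named here after its value was seen.

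Calls among the other carriers of amino acids at the plasma membrane differed from those of the 10. Both lists were chosen with earlier results of these data known, so this contrast is only descriptive. Of 39 listed, 23 were tested, and 1 was higher and 6 were lower, with a median log2 fold change of -0.01. The higher gene was Slc1a3, a glutamate and aspartate carrier, which rose from between 80.4 and 133 normalized counts in WT to 585, 295, 252 and 484 in DKO replicates 1 to 4 (log2 fold change 1.91, edgeR adjusted p = 0.00551). DKO replicate 1, where Slc1a3 was highest, also had the highest mesenchymal sum (45395). The part of cell mixture in the Slc1a3 difference was not tested. The lower genes with the smallest p were the taurine carrier Slc6a6 (log2 fold change -0.59, adjusted p = 0.00424), Slc7a8 (-1.81, adjusted p = 0.0067) and the large neutral amino acid carrier Slc43a2 (-0.99, adjusted p = 0.0119). Slc36a2 (-1.73, adjusted p = 0.0124), Slc7a6 (-0.51, adjusted p = 0.0192) and Slc38a10 (-0.37, adjusted p = 0.0445) were also lower.

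Carriers of internal membranes were mostly lower where they passed. Of 8 lysosomal carriers tested, 2 were lower and none higher in edgeR (none higher at an unadjusted p under 0.05 or in DESeq2), namely Mfsd12, needed for cysteine import into lysosomes and melanosomes (log2 fold change -0.55, adjusted p = 0.0228), and Slc15a4, a carrier of histidine and peptides (-0.58, adjusted p = 0.0108). Of 10 mitochondrial carriers tested, 5 were lower and 1 was higher, with a median of -0.42. The higher one was Slc25a38, which brings glycine into mitochondria for heme synthesis, with means of 1743 ± 79.2 and 2552 ± 392 normalized counts (SD, n = 4 for WT and DKO, log2 fold change 0.55, edgeR adjusted p = 0.0120). The lower ones were the aspartate-glutamate carriers Slc25a12 (-0.74, adjusted p = 0.0377) and Slc25a13 (-0.64, adjusted p = 0.0171), the ornithine carrier Slc25a15 (-0.71, adjusted p = 0.00312), the glutamate carrier Slc25a22 (-0.40, adjusted p = 0.0293) and Slc25a44, a carrier of branched-chain amino acids (-0.43, adjusted p = 0.0400).

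Genes that use the imported cystine and glycine were read beside their carriers. Of 15 genes from cystine to glutathione, 3 were higher and none lower in edgeR (none lower at an unadjusted p under 0.05 or in DESeq2). Gclm, the modifier subunit of the enzyme that starts glutathione synthesis, had 3248 to 4050 normalized counts in WT and 5900 to 8858 in DKO (log2 fold change 0.98, edgeR adjusted p = 0.00255), while its catalytic partner Gclc had a log2 fold change of 0.16 (adjusted p = 0.591) and is named for the contrast. Gpx4, which reduces lipid peroxides with glutathione, had a log2 fold change of 0.56 (adjusted p = 0.00902). Chac1, which breaks glutathione down, had at most 28.9 normalized counts in WT and 217 to 1374 in DKO (log2 fold change 5.62, adjusted p = 0.00404). Of 9 genes that use or make glycine, 2 were lower and none higher (none higher at an unadjusted p under 0.05 or in DESeq2). These were Alas1, the ubiquitous form of the enzyme that joins glycine to succinyl-CoA (2838 to 3731 normalized counts in WT, 848 to 1344 in DKO, log2 fold change -1.48, edgeR adjusted p = 0.00102), and Shmt1, which interconverts serine and glycine (-0.48, adjusted p = 0.0178).

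Of 36 genes that sense amino acids upstream of mTORC1, 4 were higher and 3 lower, with a median log2 fold change of 0.01. These counts are near the shares of all tested genes (10.7% higher and 10.8% lower), so the list as a whole did not stand out. The leucine sensor Sesn2 was higher (log2 fold change 1.20, edgeR adjusted p = 0.00643), as were its relative Sesn3 (0.97, adjusted p = 0.0381) and the GTPase Rragd (3.73, adjusted p = 0.00925), whose DKO values ran from 77.9 to 736 normalized counts with the highest in replicate 1. Sesn1, another relative, was lower (-1.25, adjusted p = 0.00247), as were Depdc5 (-0.55, adjusted p = 0.0145) and Tsc2 (-0.36, adjusted p = 0.0485), both inhibitors of the pathway. DKO replicate 1, highest for Rragd, also had the highest mesenchymal sum (45395). The part of cell mixture in the Rragd difference was not tested.

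**Figure D5:**
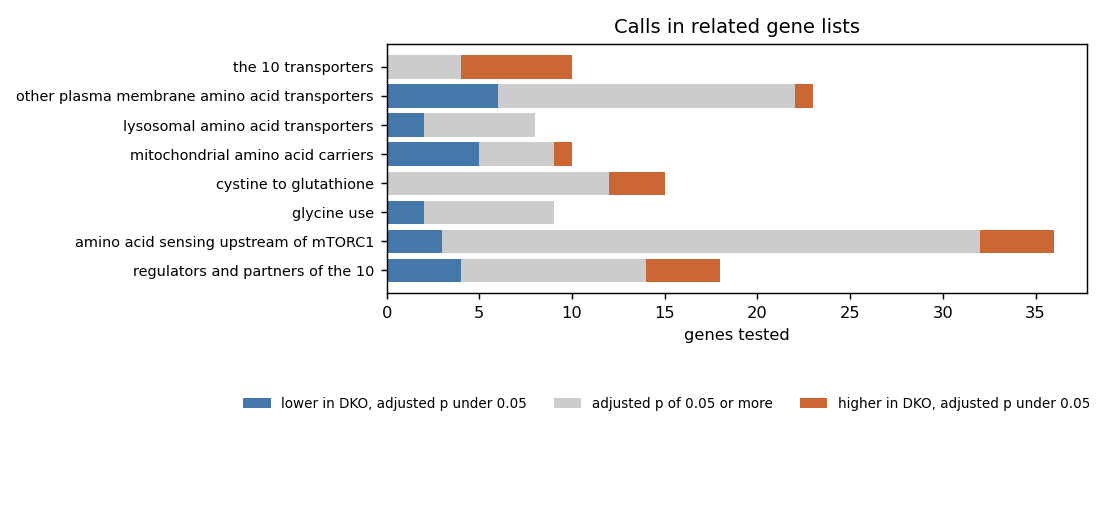
Numbers of tested genes (x axis) that were lower (blue) or higher (orange) in DKO at an edgeR adjusted p under 0.05, or did not pass (grey), in the 10 transporters and 7 related lists. The 10 transporters hold 6 higher and 0 lower genes, while the mitochondrial carriers hold 1 higher and 5 lower. Of all genes tested, 10.7% were higher and 10.8% lower.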

How the data were processed

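RNAseq counts of S0 cells from 4 WT and 4 DKO libraries were used; each library is taken as 1 embryo, which the labels do not state, so p-values measure the spread between libraries. The authors trimmed reads with fastp 0.21.0, mapped them to mm10 with HISAT2 2.2.1, removed poorly mapped alignments and deposited raw counts for each gene and library, made with StringTie 1.3.3b and prepDE. Symbols and coordinates came from GENCODE M21 (GRCm38, the same build), which matched 52489 of 52636 identifiers, version ignored.

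Counts were filtered with filterByExpr, scaled by TMM and compared with edgeR 4.0.16 in R 4.3.3 (robust quasi-likelihood, no covariate, limma 3.58.1). Standard errors came from the log2 fold change and F statistic. Log2 CPM of each transporter was compared by an exact permutation test over 70 arrangements. The fit was also run on data simulated with 1 spread for all genes and both genotypes (biological coefficient of variation 0.375). It recovered 145 of 200 changed genes and called 5 of 16947 unchanged ones. Real spread differed by genotype (SD over mean of Slc3a2, 4.75% in WT and 26.4% in DKO). The simulation therefore cannot show how often the fit errs on these data. Libraries of 1 genotype differed far beyond counting error (chi-square per gene at least 18.3), so none was a copy. At these totals, counting error limits mainly Slc7a11 in WT.

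The 10 genes and all lists were chosen with earlier results of these data known. Named from each list were all genes that passed, where 6 or fewer, or otherwise the 3 with the smallest p in each direction. For the other plasma membrane carriers, the remaining lower genes were named as well. Alternatives were DESeq2 1.42.0, RLE, upper-quartile or no scaling, other low-count filters, each library left out, a replicate block and DKO replicate 3 alone. Other lengths were added after seeing the data.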

Additional observations from a re-analysis of the deposited data

Results flagged for a closer look

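Slc7a5 in WT replicate 4 had 1734 normalized counts, while the other 3 WT libraries had 2516 to 2596, and its distance from them was large for a group of 4 (0.908 of the range, critical value 0.829). It was the only one of 20 groups of 4 libraries to stand out in this way, and chance gives about 1 in 20. Leaving it out lowered the log2 fold change to 0.42, with an edgeR adjusted p of 0.178.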

How the results depend on the processing

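The direction of 9 of the 10 transporters held in all 16 alternatives. Slc38a2 reversed with upper-quartile scaling, to 0.036. Slc7a11 and Slc7a3 passed in all 16 (log2 fold changes 3.72 to 4.41 and 3.83 to 4.39), Slc6a9 in 15, Slc1a4 in 14, Slc3a2 in 12 and Slc1a5 in 7. With 1 library left out, the number of transporters higher ranged from 3 to 8 and lower from 0 to 1, and all genes called ranged from 858 to 1915 higher and from 898 to 2012 lower. Leaving out WT replicate 1 gave both 3 transporters and the 858 genes. Transporters lower numbered 1 (Slc38a1) without TMM and in DKO replicate 3 alone, where 2 were higher with a log2 fold change above 1. Upper-quartile scaling called 1242 genes lower, and 66.7% of all calls were then higher, against 49.9%. With the replicate block, 1026 genes were higher and 1083 lower, and 4 transporters were higher, without Slc3a2 and Slc1a5. Same-numbered libraries did not deviate together (correlations -0.10, 0.05, -0.03 and -0.01). The replicate numbers are those of the sample titles, and for DKO they do not all match the numbers in the library names. Any other pairing of the libraries was not tested. The causes of these shifts were not tested. Counting error weighs most on Slc7a11 in WT, at 10 to 41 counts, and then on Slc7a3 in WT, at 65 to 133.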
